A study of Rattus norvegicus with 4 samples.

Results

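Oxidative phosphorylation genes were compared between olfactory ensheathing cells (OECs) of the olfactory mucosa and OECs of the olfactory bulb of the rat. The genes were chosen by name. They comprise every array probe, control probes aside, whose gene name begins with Nduf, Uqcr or Atp5, is Sdha to Sdhd, or begins with Cox followed by a digit from 4 to 8. This gave 82 probes for 70 gene names, of 41012 probes for 35658 names in all. Testing was limited to probes that stood well above background on 3 or more arrays in the mucosa or the bulb channel (with several spots, in 0.5 or more of them). This left 80 probes and 68 names, and each name was represented by its brightest tested probe. Uqcrb, a complex III subunit, was well above background on 1 mucosa and 2 bulb channels and was not tested. Atp5e, a subunit of the F1 stalk, lacked a ratio on array 3 and was not tested. 3 of the 68 tested names were set apart as no subunits. Cox4nb is named for its position beside Cox4 (it is now Emc8, a part of an endoplasmic reticulum complex). Ndufaf1 is an assembly factor and Atp5s is a coupling factor. Cox7a2l, a factor that joins complexes, and Cox6c1, which RefSeq lists as Cox6c-ps1, were left among the complex IV names.

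The study hybridised 4 two-colour arrays, each with 1 mucosa sample labelled with Cy5 and 1 bulb sample labelled with Cy3. Both samples came from male Fischer rats, both were OECs grown in culture by the same protocol, and the labels give neither age nor time in culture. The design calls the samples of an array paired without saying what a pair shares, and calls the 4 arrays biological replicates. No array had the dyes swapped, so an effect of the dye on a probe and a difference between the tissues cannot be told apart. The mRNA was isolated on magnetic beads and amplified as cDNA by a global PCR before labelling, so that a ratio compares amplified material. Each value below is a within-array log2 ratio of mucosa over bulb, in which 1 unit is a 2-fold difference and a negative value means less signal in mucosa cells. Errors are standard deviations (SD) over the 4 arrays. "Called" means an adjusted p below 0.05 by limma over all 31868 names tested.

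All 11 ensheathing and Schwann glia markers with a probe were well above background on at least 3 arrays in both channels, and 7 of them were called lower in mucosa cells, with a list median of -1.42. Their summed normalised intensity ran from 20165 to 24242 in the mucosa channel and from 50082 to 72654 in the bulb channel. Of 10 fibroblast markers 4 were called higher and 2 lower, and their summed intensity ran from 292163 to 337799 in mucosa and from 117588 to 178108 in bulb. The cells of the 2 labels thus differed in glial and mesenchymal markers as well, and the part of this in the values below was not tested. In such bulk samples fewer cells of a type and less RNA per cell cannot be told apart. The median mucosa signal before normalisation was 842, 839, 567 and 598 on arrays 1 to 4, against 342 to 382 in the bulb channel, and 82.8% to 91.1% of mucosa spots were well above background. No spot was saturated.

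Oxidative phosphorylation is the set of reactions in the inner mitochondrial membrane that turns the oxidation of NADH and succinate into ATP. Complex I and complex II pass electrons to ubiquinone, complex III passes them to cytochrome c, and complex IV (cytochrome c oxidase) passes them to oxygen. Complexes I, III and IV pump protons, and complex V (ATP synthase) uses the proton gradient to make ATP. Most subunits are encoded in the nucleus, while a small number of core subunits of complexes I, III, IV and V are encoded in mitochondrial DNA. Several complex IV subunits exist as a ubiquitous form and as a form found mainly in certain tissues, such as heart, muscle, lung or testis.

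The probes behind the results that follow are shown because a call rests on 1 probe of 60 bases in most cases, and because some genes have probes that disagree. Positions are on the rat build rn4, as the array files give them, and each sequence is as the files give it. The Cox6b2 probe lies at chr1:67810813-67811438 on the plus strand, a span longer than the probe, so that by these coordinates it joins sequence from 2 exons. A probe named after the expressed sequence tag AA943160 lies across the same stretch on the minus strand, at chr1:67810764-67811389. The capitals mark the 11 bases at the start of each probe that are the reverse complement of each other.
Cox6b2: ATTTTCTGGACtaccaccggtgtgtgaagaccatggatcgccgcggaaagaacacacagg
AA943160: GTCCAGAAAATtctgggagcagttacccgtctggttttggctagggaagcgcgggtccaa

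Apart from those shared ends, these 2 probes read different bases of the locus. The ubiquitous counterpart of Cox6b2 is on the array as Cox6b, at chr1:85654963-85655022 on the minus strand. The probe's description in the files names uroplakin Ia, so it is uncertain which gene it reads.
Cox6b: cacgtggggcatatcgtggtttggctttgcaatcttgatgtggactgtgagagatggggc

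Ndufa9 has 2 tested probes, both on the minus strand of chromosome 4, whose centres are 13.966 kb apart. The brighter one is at chr4:163208492-163208551 and the other spans chr4:163221522-163223453, which again is longer than the probe.
Ndufa9, brighter probe: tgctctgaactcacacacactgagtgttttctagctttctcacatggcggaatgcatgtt
Ndufa9, other probe: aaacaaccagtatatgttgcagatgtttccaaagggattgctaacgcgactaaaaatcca

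The other called members are read by these probes. Ndufs1 lies at chr9:61811846-61811905 on the minus strand, the brighter Cox5b probe at chr9:35626188-35626409 on the plus strand, and Ndufa1 at chrX:7727730-7727789 on the plus strand.
Ndufs1: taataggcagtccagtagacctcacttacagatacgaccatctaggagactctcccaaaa
Cox5b: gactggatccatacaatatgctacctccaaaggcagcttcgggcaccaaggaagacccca
Ndufa1: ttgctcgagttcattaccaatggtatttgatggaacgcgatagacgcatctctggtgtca

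Most nuclear-encoded members had somewhat lower ratios than the array as a whole, but few were called. A single tissue isoform, Cox6b2, stood far below the rest. Of the 68 tested members, 4 were called lower in mucosa cells (Cox6b2, Ndufs1, Cox5b and Ndufa1) and 1 was called higher (Ndufa9). Of all names tested, 6.62% were called, 3.39% lower and 3.24% higher, so the members' count is near the background. Cox6b2 was the only member still called when any 1 array was left out, or when the scanner software's processed signals were used. The median log2 ratio of the members was -0.40, against 0.01 over all names, and 51 of 68 (75.0%) lay below 0, against 49.1% of all names. 22 of the 68 members were lower on all 4 arrays and 7 of the 68 were higher on all 4, where 15.7% and 17.8% of all names were. At an unadjusted p below 0.05, 17 of the 68 members were lower and 4 of the 68 higher, beside 12.6% and 11.1% of all names.

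**Figure D1:**
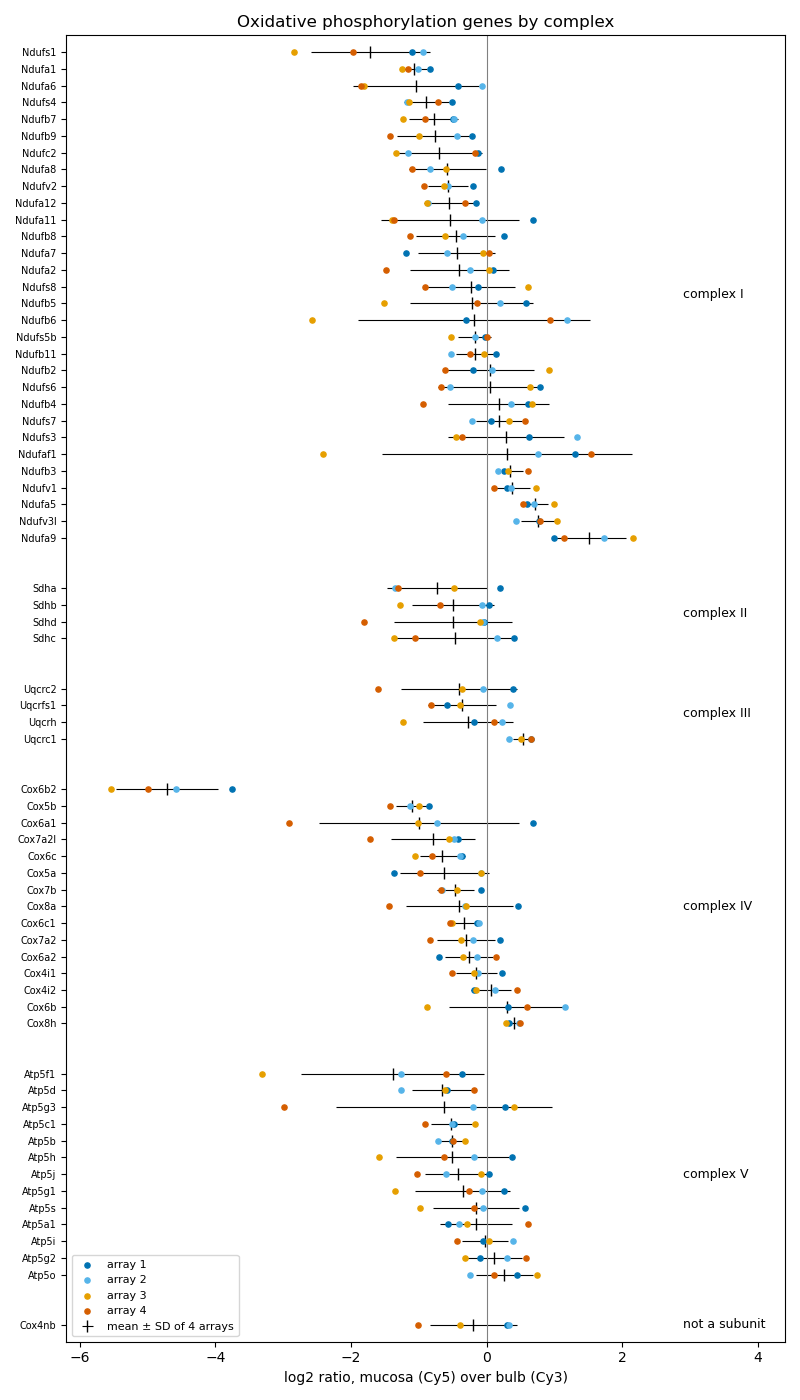
Log2 ratio of mucosa over bulb (x axis) for 67 of the 68 tested names (rows), grouped by complex and ordered by the mean; points are the 4 arrays in 4 colours, the tick is the mean and the bar 1 SD. Cox6b2 lies between -5.53 and -3.76, and Ndufa9 is the highest member with a mean of 1.51.

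The size of the shift differed between the arrays. The members' median was 0.00 on array 1, -0.19 on array 2, -0.44 on array 3 and -0.65 on array 4, whereas the median of all names stayed between -0.00 and 0.05. 29 members (42.6%) had their lowest ratio on array 4 and 23 (33.8%) on array 3, beside 25.8% and 25.9% of all names. 34 members had their highest on array 1, which was not counted over all names. Arrays 3 and 4 were also those with the lower mucosa signal, and the part of signal in the members' shift was not tested. Without replicate 4 the median was -0.25. With each array only centred on its median, in place of a correction that follows intensity, it was -0.15, with 44 of 68 members below 0 and the median of all names at 0.08. It was below 0 under every alternative tried. The members are brighter than most probes, with a median log2 intensity of 11.13 against 9.36, and the median ratio of the brightest 7967 names was -0.04.

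Complex I, which oxidises NADH, gave 31 tested names with a median of -0.24, 20 of them below 0. The 3 tested core subunits of its NADH-oxidising arm went different ways. Ndufs1, the largest iron-sulfur subunit, had log2 ratios of -1.11, -0.93, -2.84 and -1.97 on arrays 1 to 4. Its normalised intensity was 339 to 901 in mucosa and 1693 to 2433 in bulb, with no overlap. The mean of -1.71 ± 0.88 (SD, n = 4) is a level 3.28-fold lower in mucosa cells, with an adjusted p of 0.044. Ndufv2, another iron-sulfur subunit, had -0.58 ± 0.30, lower on all 4 arrays but not called. Ndufv1, which binds NADH, had 0.37 ± 0.26 and was higher on all 4 without being called.

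Among core subunits that pass electrons on to ubiquinone, Ndufs8 had -0.24 ± 0.65, Ndufs7 0.19 ± 0.34 and Ndufs3 0.28 ± 0.85. Each of these had arrays on both sides of 0, and none was called. A difference between core subunits was not tested.

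Accessory subunits surround that core, and 23 were tested, with a median of -0.40. Ndufa1, a small membrane subunit, gave the tightest of the called falls, with -0.84, -1.01, -1.24 and -1.17 on the 4 arrays. Its mean was -1.06 ± 0.18 (adjusted p = 0.032), a level 2.09-fold lower in mucosa cells. Its intensities were 387 to 857 in mucosa and 917 to 1723 in bulb. Ndufs4, Ndufb7, Ndufb9, Ndufa6, Ndufc2 and Ndufa12 were also lower on all 4 arrays, with means from -1.04 to -0.55, and none of them was called. On the other side Ndufa5 (0.71 ± 0.20), Ndufv3l (0.76 ± 0.25) and Ndufb3 (0.34 ± 0.19) were higher on all 4 arrays without a call. Ndufa5 and Ndufv3l were called, and Ndufa1 and Ndufs1 were not, when arrays were only centred on their medians.

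Ndufa9, an accessory subunit near the junction of both arms of complex I, was the single member called higher, and its 2 probes disagreed. The brighter probe had intensities of 4665, 5063, 5933 and 3528 in mucosa and 2336, 1522, 1323 and 1593 in bulb, with no overlap. Its log2 ratios were 1.00, 1.73, 2.16 and 1.15, with a mean of 1.51 ± 0.54 and an adjusted p of 0.027. The other probe had ratios of 0.16, -0.67, -0.38 and -0.69, with a mean of -0.40 ± 0.39. Averaged over both probes the gene had 0.56 and was not called (adjusted p = 0.17). Apart from that second probe, the nearest array probes were BF412657 on one side (-0.19 ± 0.16, 46.6 kb away) and Kcna6 on the other (0.18 ± 0.37, 85.7 kb away), and neither was called. In the RefSeq order Galnt8 and Akap3 flank Ndufa9, and no probe within 100 kb carries the name Galnt8. Akap3 lies 54.8 kb away, beyond BF412657 and on the other strand. It had 0.61, 1.07, 1.37 and 0.66, a mean of 0.93 ± 0.36, higher on all 4 arrays without a call (adjusted p = 0.067). The brighter Ndufa9 probe lies on the 3′ side of the second one, since both read the minus strand. Which of the 2 Ndufa9 probes represents the gene cannot be settled from these files.

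**Figure D2:**
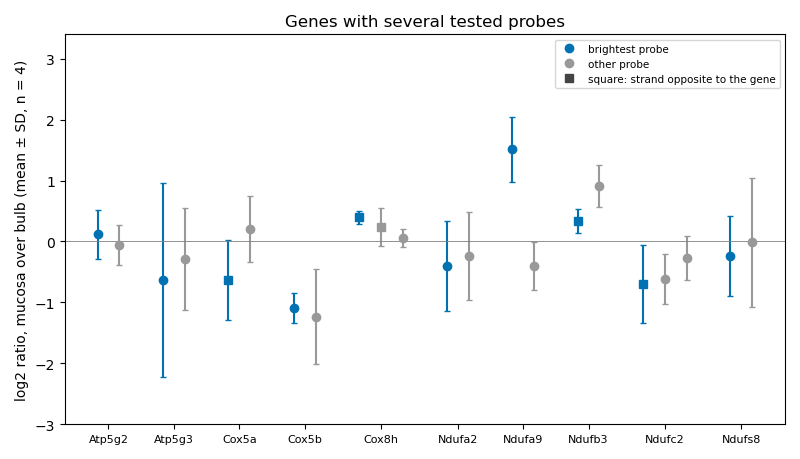
Mean log2 ratio of mucosa over bulb (y axis, bars 1 SD over 4 arrays) for each probe of the 10 member genes with several tested probes (x axis), ordered by brightness within a gene; blue is the brightest probe, grey the others, squares a strand opposite to the gene. The Ndufa9 probes lie at 1.51 and -0.40, while both Cox5b probes lie near -1.

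Complex II, succinate dehydrogenase, also belongs to the citric acid cycle, and its 4 subunits are all encoded in the nucleus. All 4 had means below 0 and none was called. Sdha, the subunit that oxidises succinate, had 0.20, -1.35, -0.47 and -1.30, a mean of -0.73 ± 0.74 (adjusted p = 0.22). Sdhb, which carries the iron-sulfur clusters, had -0.50 ± 0.60. The membrane anchors had -0.47 ± 0.87 (Sdhc) and -0.50 ± 0.87 (Sdhd). The Sdhd mean rests on array 4, with -1.81 there and -0.04, -0.05 and -0.09 on the other arrays. The complex median was 0.11 and -0.06 on arrays 1 and 2 and -0.88 and -1.18 on arrays 3 and 4.

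Complex III passes electrons from ubiquinone to cytochrome c. Its 4 tested subunits had a median of -0.32. Uqcrc2, a large core protein, had 0.39, -0.05, -0.36 and -1.59, a mean of -0.40 ± 0.85. Its partner Uqcrc1 had 0.66, 0.33, 0.51 and 0.65, a mean of 0.54 ± 0.15, higher on all 4 arrays but not called (adjusted p = 0.17). The Rieske iron-sulfur protein Uqcrfs1 had -0.36 ± 0.50 and the hinge protein Uqcrh had -0.27 ± 0.66.

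Complex IV held the largest difference of the whole set. Cox6b2, known as the testis form of subunit VIb, had normalised intensities of 414, 336, 114 and 223 in mucosa cells on arrays 1 to 4. In bulb cells they were 5603, 8052, 5306 and 7153, all more than 10 times those of mucosa. The probe was well above background on all 4 arrays in both channels. The log2 ratios were -3.76, -4.58, -5.53 and -5.00, with a mean of -4.72 ± 0.75 (SD, n = 4; adjusted p = 0.0020), or 26.3-fold lower in mucosa cells. The mean was between -5.14 and -4.45 under the 19 alternatives tried, and called in each of them. Cox6b2 was named for this comparison with that ratio known, and its size is a description.

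The probe on the opposite strand of the same locus gave a similar value. AA943160 had -3.56, -4.57, -3.99 and -4.12, a mean of -4.06 ± 0.41 (adjusted p = 0.0014). Of the 13 probes within 100 kb of the Cox6b2 probe, for 11 names, 2 further names were called. Il11, the gene of the cytokine interleukin 11, lies 22.7 kb away on the same strand and had -5.66 ± 0.81 (adjusted p = 0.0015). Hspbp1, a gene for a partner of Hsp70 chaperones, lies 75.5 kb away on the other side and had -1.58 ± 0.60 (adjusted p = 0.028). The probe nearest to Cox6b2 on that side, Suv420h2 at 6.4 kb, had 0.26 ± 0.40, and LOC684718, which lies beyond Il11, had -0.47 ± 1.18. In the RefSeq order of the assembly GRCr8, Garin5b lies between Il11 and Cox6b2, and Kmt5c, the current name of Suv420h2, follows Cox6b2. This window was set after the values were seen.

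**Figure D3:**
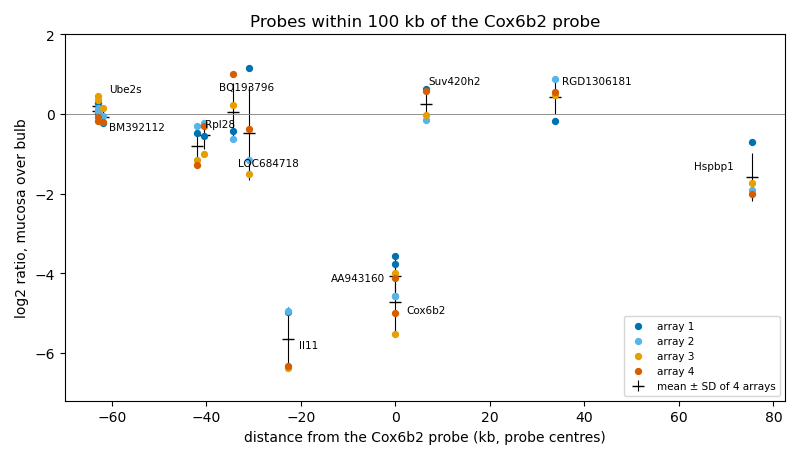
Log2 ratio of mucosa over bulb (y axis) for each array probe within 100 kb of the Cox6b2 probe, against the distance between probe centres in kb (x axis); points are the 4 arrays, ticks and bars the mean and SD. Cox6b2, AA943160 and Il11 lie below -3.5 on every array, while Suv420h2 and LOC684718, on their outer sides, have means of 0.26 and -0.47.

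Tissue isoforms were set against their ubiquitous counterparts on the same arrays, in 4 pairs, by an exact two-sided sign-flip permutation test whose smallest possible p with 4 arrays is 0.125. Cox6b had 0.32, 1.15, -0.87 and 0.60, a mean of 0.30 ± 0.85. The description of its probe names uroplakin Ia, so which gene it reads, and whether the next difference is one between isoforms, is uncertain. Cox6b2 minus Cox6b was -4.08, -5.73, -4.66 and -5.60, a mean of -5.02 ± 0.79, lower on 4 of 4 arrays (exact p = 0.125, adjusted over the 4 pairs 0.50). Cox4i2, the lung isoform of subunit IV, had 0.06 ± 0.29 and its ubiquitous form Cox4i1 had -0.15 ± 0.30. Their difference of 0.21 ± 0.57 changed sign between arrays (exact p = 0.625). Cox6a2, the heart and muscle form of subunit VIa, had -0.26 ± 0.35 and its liver-type form Cox6a1 had -0.99 ± 1.48. That pair differed by 0.73 ± 1.81 (exact p = 0.625), and array 4 alone gave 3.05.

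Cox8h, the heart form of subunit VIII, had 0.40 ± 0.10 and was higher on all 4 arrays without a call, and its counterpart Cox8a had -0.40 ± 0.79. They differed by 0.80 ± 0.86 (exact p = 0.25). The Cox8h value comes from a probe on the strand opposite to the gene. A Cox8h probe on the gene's own strand was well above background on 2 mucosa and 3 bulb arrays and had 0.06 ± 0.15. Of the 4 tissue isoforms tested, Cox6b2 was the only 1 called. Cox7a1, Cox7b2, Cox8c and Ndufa4l2 were not analysed here.

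**Figure D4:**
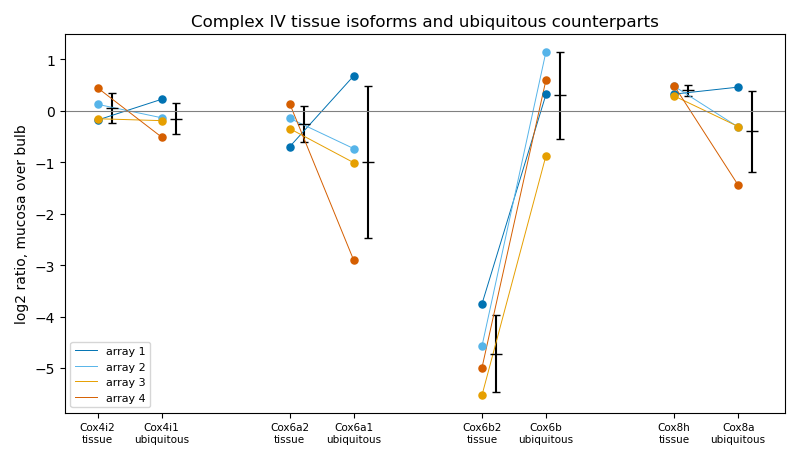
Log2 ratio of mucosa over bulb (y axis) for 4 tissue isoforms of complex IV and their ubiquitous counterparts (x axis); coloured points and lines join the values of 1 array, and the black tick and bar give the mean and SD. Cox6b2 minus Cox6b is between -5.73 and -4.08 on the 4 arrays, while the Cox4, Cox6a and Cox8 pairs slope both ways. Which gene the Cox6b probe reads is uncertain.

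The 10 ubiquitous complex IV names tested had a median of -0.43, and 9 of them, all but the uncertain Cox6b, lay below 0. Cox5b, a peripheral subunit on the matrix side, was the only 1 of these called. Its brighter probe had intensities of 10833, 11154, 10885 and 8140 in mucosa and 19491, 24437, 21650 and 21808 in bulb. The ratios were -0.85, -1.13, -0.99 and -1.42, a mean of -1.10 ± 0.24 (adjusted p = 0.033), or 2.14-fold lower in mucosa cells. Its second, dimmer probe had -1.24 ± 0.78, below 0 on all 4 arrays. With median centring alone the mean was -0.76 and was not called.

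Cox5a, the other matrix-side subunit, had -1.37, -0.08, -0.08 and -0.99 by its brightest probe, a mean of -0.63 ± 0.66 (adjusted p = 0.26). That probe lies on the strand opposite to the gene, and the probe on the gene's strand had 0.21 ± 0.54. Cox6c, Cox6c1 and Cox7b were below 0 on all 4 arrays, with means of -0.65, -0.33 and -0.46, and none was called. Cox6c1 is listed by RefSeq as Cox6c-ps1, a copy of Cox6c, so its value is uncertain. Cox7a2 had -0.30 ± 0.42. Cox7a2l, which joins complexes III and IV into larger assemblies, had -0.42, -0.48 and -0.56 on arrays 1 to 3 and -1.72 on array 4.

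Complex V makes ATP in its F1 head, which is held by a stalk on the membrane part. All 4 tested F1 names had means below 0, with a median of -0.52, and none was called. Atp5b (now Atp5f1b), the catalytic beta subunit, had -0.52, -0.72, -0.31 and -0.50, a mean of -0.51 ± 0.17 (adjusted p = 0.19). Atp5c1 and Atp5d, of the central stalk, had -0.52 ± 0.31 and -0.66 ± 0.45 and were below 0 on all 4 arrays. Atp5a1, the alpha subunit, had -0.16 ± 0.53. In the membrane part and outer stalk, 8 names had a median of -0.39. Atp5f1 (now Atp5pb), subunit b of the outer stalk, had -0.37, -1.27, -3.32 and -0.59. Its mean of -1.39 ± 1.34 was the lowest of complex V without being called (adjusted p = 0.16). The Atp5f1 probe was well above background on 3 mucosa and 4 bulb arrays. Its ratio on array 3 rests on a mucosa intensity of 76, and without replicate 3 the mean was -0.74. Atp5o (now Atp5po), which joins the stalk to F1, had the highest mean, 0.26 ± 0.42.

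The ring of subunit c has 3 nuclear genes that encode the same mature protein. Atp5g1 had -0.35 ± 0.70, Atp5g2 had 0.12 ± 0.40 and Atp5g3 had -0.63 ± 1.59. The Atp5g3 mean rests on array 4, with -2.99 there and 0.27, -0.19 and 0.40 on the other arrays. A second Atp5g2 probe had -0.06 ± 0.33 and a second Atp5g3 probe had -0.29 ± 0.84. A difference between the 3 genes was not tested.

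Subunits encoded in mitochondrial DNA went the other way. The array has 6 such names with a tested probe, which the name rule does not take in and which were picked by name after the array's names had been seen. COX1, the catalytic subunit of complex IV, had 1.77, 1.62, 2.58 and 2.87, a mean of 2.21 ± 0.61 (adjusted p = 0.010), or 4.62-fold higher in mucosa cells. COX2 and COX3, the other core subunits of complex IV, had 1.54 ± 0.46 and 2.01 ± 0.80 (adjusted p = 0.020 and 0.022). CYTB of complex III had 1.65 ± 0.67 (adjusted p = 0.029). Of complex I, ND2 had 2.11 ± 0.73 (adjusted p = 0.017) and ND5 had 1.34 ± 0.83, which was not called (adjusted p = 0.076).

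All 6 were higher on all 4 arrays, with a median of 1.20, 1.32, 2.11 and 2.60 on arrays 1 to 4. The arrays with the lower nuclear medians were thus those with the higher mitochondrial ones. A correlation was not computed with 4 arrays. The mitochondrial probes are among the brightest of the array, with raw mucosa signals of 76135 to 248476 and bulb signals of 11209 to 37034, below the saturation values of 580278 to 630502. The 137 names at least as bright as the dimmest of them had a median of 0.29, and 29.2% of them lay below 0. The means stayed above 0 under every alternative, from 1.09 (ND5 without replicate 4) to 2.76 (COX1 with median centring). With the scanner software's own processed signals COX2, COX3 and CYTB were no longer called (1.36, 1.81 and 1.46). Leaving out any 1 array ended the calls of COX2, COX3, CYTB and ND2, while COX1 was called each time. The part of brightness and of the arrays' signal in these ratios was not tested.

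**Figure D5:**
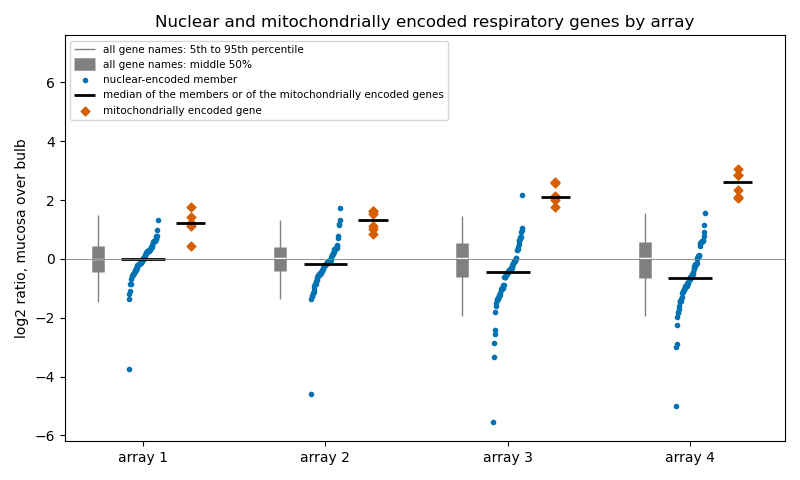
Log2 ratio of mucosa over bulb (y axis) on each array (x axis) for all names (grey, 5th to 95th percentile and middle 50%), the 68 nuclear members (blue points) and 6 mitochondrially encoded genes (orange diamonds); black lines are medians. The nuclear median falls from 0.00 on array 1 to -0.65 on array 4, while the mitochondrial medians are 1.20 and 2.60 there.

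Genes around the respiratory chain were read from lists written with earlier results of these data known. Of 12 tested electron carriers and enzymes that feed ubiquinone, 1 was called lower and the median was -0.32. The called gene was Sqrdl, a sulfide oxidase, with -2.33, -1.45, -0.97 and -2.94, a mean of -1.92 ± 0.88 (adjusted p = 0.032), and it was not called without replicate 1, 2 or 4. Cycs, the gene of cytochrome c, had -0.48 ± 0.11 and was not called. Of 10 assembly factors none was called, with a median of -0.43, and Lrpprc, which stabilises mitochondrial mRNA, had the largest ratio, -1.08 ± 1.26. Of 16 inner membrane carriers and structural genes none was called, with a median of -0.09, and Ucp2 had -0.78 ± 0.29.

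Of 15 genes for mitochondrial biogenesis, 1 was called higher and the median was -0.03. That gene was Pprc1, a coactivator of the PGC-1 family, with 1.20, 1.39, 0.91 and 0.91, 2.15-fold higher on average (SD 0.23 on the log2 scale; adjusted p = 0.032). It was not called when any 1 array was left out. Tfam, the packaging and transcription factor of mitochondrial DNA, had -0.74. Of 20 citric acid cycle and pyruvate dehydrogenase genes none was called, with a median of -0.14, and Pdk2, a kinase that inhibits pyruvate dehydrogenase, had -1.69 ± 1.01 (adjusted p = 0.060).

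Glycolysis genes had about the same median as the oxidative phosphorylation members. Of 21 glycolysis and lactate genes 18 lay below 0 with a median of -0.40, and none was called. Pgk1 and Tpi1, glycolytic enzymes, had -0.88 ± 0.33 and -0.86 ± 0.21, and Pfkp had -1.54 ± 1.33. A median of this size was thus also found outside the mitochondrial genes. Of 13 hypoxia-inducible genes none was called, with a median of -0.04, and Epas1, a hypoxia-inducible factor, had -1.31 ± 0.70 (adjusted p = 0.060).

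In the lists of germ cell and sperm, muscle and brown adipocyte markers, no tested marker was called lower. Lung markers were not listed, and the part of any such cells in the isoform ratios was not tested. Of 12 germ cell and sperm markers 11 had a probe and 7 were tested, none was called, and their median was 0.27. Of the 7 tested, 6 were well above background on at least 3 mucosa arrays and all 7 on at least 3 bulb arrays. The summed intensity of the 7 was 12124 to 15373 in mucosa and 10016 to 13986 in bulb. Ldhc, the testis lactate dehydrogenase, had 0.90 ± 1.57. Of 15 skeletal and cardiac muscle markers tested, Tnnt3 was called higher (2.26 ± 0.46, adjusted p = 0.0066) and none lower, with summed intensities of 18938 to 24258 in mucosa and 15675 to 18439 in bulb. Of 5 brown adipocyte markers, Fabp4 was called higher (1.65 ± 0.82), with summed intensities of 1620 to 2678 and 868 to 1082.

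Markers of other cell types that such cultures could hold gave few or no calls in some lists and more in others. Among the glia markers Fabp7 had -2.94 ± 0.49, Cdh19 -2.44 ± 0.98 and Sox10 -1.87 ± 0.55, each called lower. Of the marker genes, Cdh19, Sox10, Slc1a3, Gfap and Fabp4 lost their calls when certain single arrays were left out. Of 7 astrocyte markers 2 were called lower, Slc1a3 (-1.85 ± 0.83) and Gfap (-1.44 ± 0.26), with summed intensities of 3894 to 5427 in mucosa and 6822 to 8631 in bulb. Of 8 neuron markers 2 were called lower, Nefm (-3.06 ± 0.69) and Nefl (-2.78 ± 0.24), with 1449 to 2268 against 3736 to 5170. The neuron list had a median of only -0.14, with 6 of the 8 below 0. Among fibroblast markers Thy1 (3.90 ± 0.71) and Col1a2 (2.27 ± 0.45) were higher and Fbln1 (-4.15 ± 0.62) was lower. Of 7 mural cell markers 3 were called higher, Cnn1 (2.70 ± 0.71), Cspg4 (2.65 ± 0.31) and Tagln (2.46 ± 0.24), and 1 lower, with 94533 to 109803 against 37739 to 43720. The mural list had a median of only 0.23, with 3 of the 7 below 0. Of 7 macrophage markers none was called, with 4428 to 12601 against 7883 to 19987, and Emr1 had -2.43 ± 1.96. The part of any of these in the lower nuclear or higher mitochondrial values was not tested.

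Strand matters for a number of members, since the labels describe amplification by PCR and do not say which strand was labelled. Of the 82 member probes, 62 lie on the strand of their RefSeq gene, 10 on the opposite strand and 10 could not be placed. The comparison sets rn4 positions of probes beside the strand in a later assembly, and 95.4% of 8633 probes made from curated transcripts came out on the gene's strand, so that a single opposite result, as for Ndufa1, is uncertain. For 4 genes (Ndufb3, Ndufc2, Cox5a and Cox8h) the array itself has probes on both strands, and in each the brightest was on the opposite strand. Ndufb3 had 0.34 ± 0.19 on the opposite strand and 0.91 ± 0.35 on its own, and Ndufc2 had -0.70 ± 0.64 against -0.62 ± 0.40 and -0.27 ± 0.36. With these 4 genes read on their own strand the counts of called members were the same.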

How the data were processed

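Each array file holds red and green mean intensity, background intensity and a log10 ratio per spot, deposited by the authors as scanner output of Agilent Feature Extraction, version 10.5.1.1 per the file headers and 9.1 per the submitters' processing notes. The deposited value table repeats the log10 ratio exactly (column medians 0 to 0.000422). The files' other columns, such as flags, gene names and rn4 positions, are the authors' deposited annotation.

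Intensities were corrected by normexp (offset 50) and loess within arrays in limma 3.58.1 (R 4.3.3), control and outlier spots aside. Spots of a probe were averaged, and the brightest complete probe stood for a name. Ratios were tested against 0 with lmFit and eBayes (6.36 degrees of freedom with the prior), with Benjamini-Hochberg adjustment over 31868 names. The array is the pair. Each array has 45018 features, all arrays come from 1 slide and 1 scan time, and 4 arrays limit the precision.

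The fit was tested on data simulated from these 31868 names, in 10 draws under each of 2 noise models. With no planted change, no name was called in any draw. With 100 names changed at each size and each name's own SD as noise, 0% to 1% of changes of log2 size 1 and 0% to 26% of size 2 were called, with 0 to 1 false calls. With the moderated SD, 0% to 5% and 67% to 86% were called, with 0 to 8 false calls. The moderated model was added after a first run of the other had recovered none of its planted changes.

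The members and lists were chosen with earlier results of these data known. Named are all called members, isoform pairs, the extremes of each complex, chosen core subunits, names whose probes differ in sign, and up to 3 genes a list. The reading of Cox6b1 as Cox6b, the roles within complexes, the mitochondrial names, the neighbour windows, the strand check and further members named were chosen after the data had been seen. Of 82 member probes, 48 matched RefSeq by accession and all by accession or symbol. No protein sequence was used. Values of 1 tested member are counted in the totals and not reported here. Figures were drawn with matplotlib 3.10.9.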

Additional observations from a re-analysis of the deposited data

Results flagged for a closer look

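In 4 genes, 1 array lay apart from the others by more than Dixon's 95% value for 4 samples, which chance gives in about 1 of 20 groups. Cox7a2l (mean -0.79) and Sdhd (mean -0.50) were lowest on array 4 by that measure. They are 2 of 68 members (2.94%), beside 5.38% of all names. Of the marker genes, Sox10 (mean -1.87) and Thy1 (mean 3.90) passed the same limit.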

How the results depend on the processing

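Against 4 members called lower and 1 higher, the scanner software's processed signals and the deposited log ratio each gave 1 lower and 0 higher, as did a trended robust variance. Median centring gave 1 lower and 3 higher, the mean over probes 0 higher, and the fit without the replicate block (channels as unpaired groups, in place of the array as the pair) 5 lower and 2 higher. Leaving out each replicate in turn gave 1 lower and 0 higher each time. The single member called lower in those fits was Cox6b2. The cause was not tested, except that leaving out an array leaves fewer samples. Over all names, the share called fell from 6.62% to between 1.76% and 3.33% without a replicate.

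The members' median stayed below 0 under all alternatives, from -0.50 (without replicate 1) to -0.15 (median centring). Cox6b2 minus Cox6b was between -5.63 and -4.78. No named gene that was called changed sign. Leaving out saturated probes changed nothing, as there were none. Alternatives added after seeing the data were removal of a GC trend, leaving out the 3 names set apart as no subunits, and the own-strand probes. Each gave 4 lower and 1 higher. With 4 arrays, 2-fold differences were seldom called in simulated data, which did not address the missing dye swap.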
